A study of Mus musculus with 4 samples.

Results

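Star strands are the strands of a miRNA hairpin that the array's naming marks with an asterisk, as in miR-17*, and they were taken here as all array names that end in that mark, apart from miR-31*. There were 118 of them among the 710 mouse miRNAs on the array. For all but 12 of these, the array also held the name without the asterisk, which is called the partner strand here. The 12, such as miR-125b*, miR-24-1* and let-7c-1*, had no partner of the same name. For most of them the main strand comes from several hairpins or carries an arm label. RNA came from 2 Junb-/- and 2 wild type clones of mouse embryonic fibroblasts (MEFs), the connective tissue cells of the embryo, with 1 array per clone. Both genotypes were derived from embryos of day 9.5 on a mixed C57BL/6 and 129/Sv background and were immortalized by the 3T3 passage scheme, so each clone is a cell line and not an embryo. JUNB, absent from the knockout clones, belongs to the AP-1 family of transcription factors. The array carries no probe for Junb mRNA, so the knockout was not checked in these data. The sources used here do not say if the clones of a genotype trace back to different embryos, and p-values describe the spread between these clones.

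Dicer cuts a miRNA hairpin into a short duplex of 2 strands. An Argonaute protein then keeps the guide strand, which finds target mRNAs through its seed, the bases 2 to 8, while the other strand, the passenger, is mostly degraded. Argonaute favours the strand whose 5′ end is less tightly paired, and often a strand that begins with U. The asterisk records which strand was found less often when the hairpin was first described, so it is a statement about other tissues as much as about fibroblasts. Some hairpins are known to deliver both strands. Since both strands come from the same transcript, a transcriptional change reaches both, whereas strand choice and strand decay act on each separately.

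The names on the array were matched to mature sequences of RefSeq (GRCm38.p6) by the arm that each star corresponds to in current naming. A mature sequence was used for 80 of the 118 stars and none for the other 38, and both arms were used for 67 pairs. The strands below are written 5′ to 3′ with the seed in capitals, and they are the hairpins whose strands are compared most closely in the results.
miR-17*: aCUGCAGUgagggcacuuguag
miR-17: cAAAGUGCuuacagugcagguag
miR-20b*: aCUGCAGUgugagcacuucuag
miR-20b: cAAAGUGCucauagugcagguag
miR-93*: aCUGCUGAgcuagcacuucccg
miR-93: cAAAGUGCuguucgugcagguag
miR-18a*: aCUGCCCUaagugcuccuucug
miR-18a: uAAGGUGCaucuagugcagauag
miR-127*: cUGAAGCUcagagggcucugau
miR-127: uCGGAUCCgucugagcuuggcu
miR-146b*: gCCCUAGGgacucaguucuggu
miR-146b: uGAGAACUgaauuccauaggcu
miR-214*: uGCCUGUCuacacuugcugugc
miR-214: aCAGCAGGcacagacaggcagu
let-7i*: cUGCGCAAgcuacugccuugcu
let-7i: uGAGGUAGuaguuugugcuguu
miR-140*: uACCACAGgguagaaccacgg
miR-21*: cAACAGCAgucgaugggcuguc
miR-21: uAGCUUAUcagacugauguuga
The partners miR-17, miR-20b and miR-93 have the same seed, AAAGUGC. Their stars do not all share one: miR-17* and miR-20b* both have CUGCAGU, whereas miR-93* has CUGCUGA. miR-17* (chr14:115043721-115043742, plus strand) and miR-20b* (chrX:52742122-52742143, minus strand) are identical at 19 of 22 positions, so their probes may capture each other's strand. miR-93* lies at chr5:138165536-138165557 on the minus strand and matches miR-20b* at 16 of 22 positions. miR-18a* (chr14:115043908-115043929, plus strand) comes from the same cluster as miR-17*. miR-127* is at chr12:109592854-109592875 on the plus strand, within the imprinted Dlk1-Dio3 region. miR-146b* is at chr19:46342828-46342849, miR-214* at chr1:162223397-162223418 and miR-140* at chr8:107551288-107551308, all on the plus strand, each inside the miRNA gene of its name. miR-21* lies on the minus strand at chr11:86584082-86584103, in Mir21a.

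The 80 matched stars had 73 distinct seeds, of which 7 were shared by 2 stars each, among them AUCUUAC of miR-200a* and miR-200b*. Among the sequences used, no star had the seed of a partner. Over the 67 pairs with both arms, 11 stars (16.4%) began with U, against 37 partners (55.2%). The median GC content was 50% for the stars and 43.5% for the partners. The stars therefore differed from their partners in the 5′ base on which strand choice is known to lean, as a description of the sequences and without a test.

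Levels are normalized log2(intensity + 50), averaged over the 8 spots of a miRNA, with a floor of 5.64 for an intensity of 0. Of 944 star spots per array, 54 and 49 were without a value in Junb-/- clones 1 and 2, against 78 and 67 in wild type clones 1 and 2. The raw median intensity of star spots was 58.94 and 63 in the Junb-/- clones and 26 and 62.4 in the wild type clones, so wild type clone 1 gave the weakest array. Over all spots the medians were 84 and 110.08 in the Junb-/- clones and 33.6 and 105.6 in the wild type clones. miRNAs of fibroblasts and mesenchyme, such as miR-21, miR-143 and miR-214, were all 8 at levels of 10.31 to 11.99. Of 21 miRNAs that mark blood, epithelium, liver, muscle, neurons or embryonic stem cells, 2 reached the median of the array, and their levels were 6.07 to 7.52.

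Star strands were dimmer than partner strands on the whole, yet the brightest of them reached levels of abundant miRNAs. The median level was 6.69 for the 118 stars, 7.41 for their partners and 6.96 for all 710 miRNAs. At or above the median of the array were 45 stars (38.1%) and 67 partners (63.2%). Star levels ran from 6.07 to 10.75 and partner levels up to 12.40. Because probes differ in how well they capture their targets, a difference between the strands is a difference of signals and not of molecule numbers.

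The brightest star was miR-467b*, from a large group of repeated hairpins in an intron of Sfmbt2, with levels of 10.62 and 11.17 in the Junb-/- clones and 10.28 and 10.94 in the wild type clones. Its neighbours miR-467a* (mean level 10.49), miR-467d* (10.22) and miR-467e* (9.30) were also among the 8 brightest stars. Hairpins of this group are near-identical copies, and their levels cannot be assigned firmly to a single member. miR-140*, whose hairpin is best known from cartilage, had a mean level of 10.26. miR-214*, from a mesenchymal hairpin, had 9.43, miR-34c*, from a p53-induced hairpin, 9.32, and miR-330* had 9.20. These 8 stars were well above the floor in every clone.

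In 21 of the pairs the star was brighter than its partner on all 4 arrays, in 53 it was dimmer on all 4, and in 32 the side differed between arrays. The strand difference, the log2 level of the star minus that of its partner, had a median of -0.58 and ran from -5.57 to 4.13. Per array its median was -0.52 and -0.55 in the Junb-/- clones and -0.65 and -0.88 in the wild type clones. The star was brighter in 42 and 43 pairs in the Junb-/- clones and in 33 and 35 pairs in the wild type clones. The order of the hairpins was much alike on every array, with correlations of the strand differences between arrays of 0.86 to 0.94 over the pairs, which share probes. The median SD of a strand difference over the 4 arrays was 0.51.

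**Figure D1:**
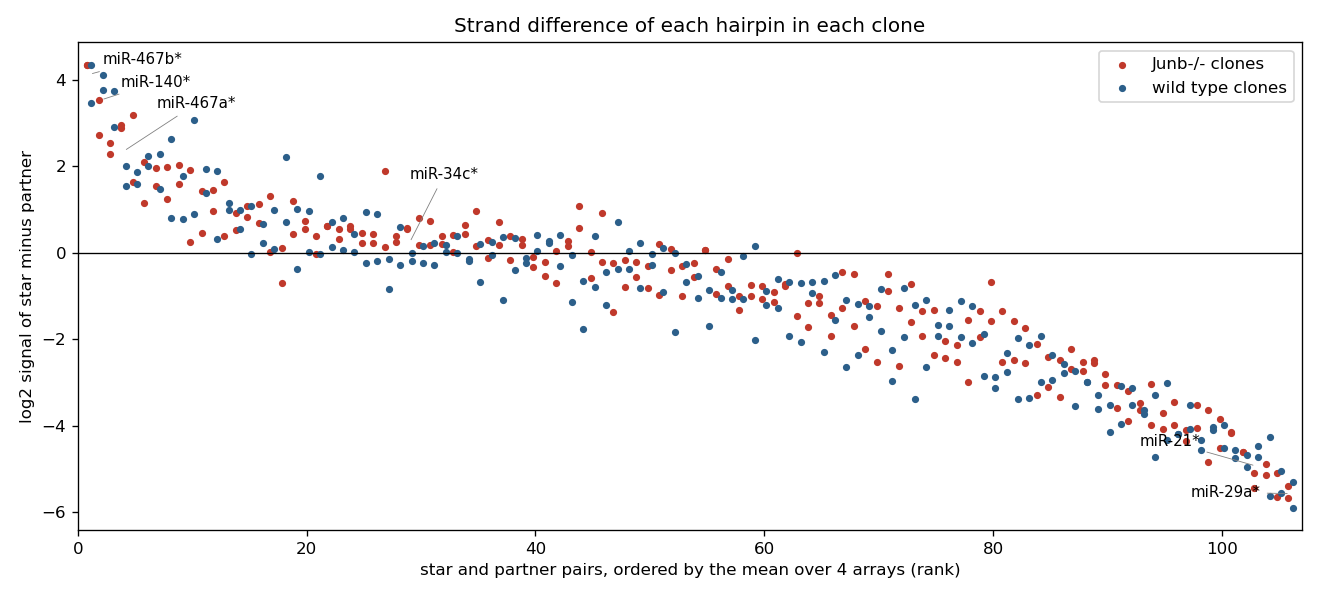
Strand difference (log2 level of the star minus that of its partner, y axis) for each hairpin with a star and a partner in each clone, with hairpins ordered by their mean on the x axis and 1 point per clone. The order is led by miR-467b* at a mean of 4.13 and ends with miR-29a* at -5.57, and points of both genotypes follow the same course.

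miR-467b* exceeded miR-467b by 4.35 and 4.34 in the Junb-/- clones and by 3.47 and 4.35 in the wild type clones, a mean difference of 4.13. miR-467b was near the floor, at 6.28 and 6.83 in the Junb-/- clones and 6.81 and 6.58 in the wild type clones, so the size of this difference is limited by the offset. All 6 stars of the Sfmbt2 group that had a partner were brighter than it on every array. Among them miR-467a*, miR-467d*, miR-467e* and miR-297c* had mean differences of 2.35, 2.07, 1.88 and 1.82.

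miR-140* followed with strand differences of 2.72 and 3.53 in the Junb-/- clones and 3.77 and 4.11 in the wild type clones, a mean of 3.53. miR-140 itself was at 7.27 and 6.25 in the Junb-/- clones and 6.99 and 6.41 in the wild type clones, near the floor, where the offset again limits the difference. For the miR-330 hairpin the mean difference was 2.86, and for the X-linked, testis-associated miR-881 hairpin 1.67. By more than 1 on every array, the star exceeded its partner in 7 pairs.

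The other pairs with the star brighter on all 4 arrays were those of miR-877, miR-196a, miR-712, miR-138, miR-297a, miR-488, miR-676, miR-9, miR-186, miR-133a, miR-302b, miR-470 and miR-294, with mean differences of 1.55 down to 0.21. In the 21 pairs, 16 stars but only 6 partners were at or above the median of the array. Hairpins such as miR-302b, miR-294 and miR-470 therefore had both strands near the floor, where a positive difference separates weak signals. Of the 32 pairs without a fixed side, 19 had both strands below the median.

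The star lay furthest below its partner in hairpins whose main strand was among the brightest partners. Where a star is near the floor, the strand difference largely follows the level of the partner, so this is partly built into the measure. miR-29a*, the companion of a miRNA that targets collagen mRNAs, was at 6.34 and 5.90 in the Junb-/- clones and 6.75 and 6.23 in the wild type clones. miR-29a was at 11.74 and 11.56 in the Junb-/- clones and 12.07 and 12.14 in the wild type clones. The strand difference had a mean of -5.57, and since the star was near the floor its size is limited by the offset. For miR-16*, miR-22*, miR-21*, miR-15b* and miR-99b*, the mean strand differences were -5.33, -4.98, -4.93, -4.71 and -4.41. The corresponding strands miR-16, miR-22, miR-21, miR-15b and miR-99b were at mean levels of 12.40, 11.78, 11.99, 10.92 and 11.05. The star was below its partner by more than 1 on every array in 33 pairs, and by more than 3 in 16. Partners were at or above the median in 51 of the 53 pairs with the star dimmer throughout, and stars in 18.

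In some families every pair was alike. The star was dimmer on all 4 arrays in all 8 pairs of the miR-17-92 group (the cluster with its paralogs), in all 6 pairs of the let-7 family and in all 5 pairs of the miR-15/16 family. Of the 13 pairs of the Dlk1-Dio3 region, 10 had no fixed side, 3 had the dimmer star throughout, and 2 of the 13 stars reached the median of the array. With U as the first base were 6 of 41 stars and 24 of 41 partners where the star was dimmer, and 1 of 6 stars and 3 of 6 partners where it was brighter. These 6 are too few to set the groups apart.

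Between the genotypes, no star strand passed the test. In limma, over all 710 miRNAs, 0 of the 118 stars had an adjusted p under 0.05, against 1.41% of all miRNAs, and the smallest adjusted p among the stars was 0.184. At an unadjusted p under 0.05 there were 8 stars (6.78%), 3 higher and 5 lower in Junb-/- clones, against 10.4% of all miRNAs. With the t-test that the methods give for qRT-PCR, while they give limma for the arrays, 7 stars had an unadjusted p under 0.05 and 0 passed after adjustment. Both Junb-/- clones lay on the same side of both wild type clones for 32 stars (27.1%), 18 higher and 14 lower, against 38.6% of all miRNAs, 21.3% higher and 17.3% lower. These shares of stars lie below the background of the array.

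Differences of the stars were small. Log2 fold changes ran from -1.02 to 1.15, and the median size was 0.25 for stars, 0.37 for partners and 0.30 for all miRNAs. The offset compresses the differences of dim strands, and for the 45 stars at or above the median of the array the median size was 0.35. A difference of more than 1 on the log2 scale was seen for 3 stars (2.54%) and for 6.90% of all miRNAs. The fold change was above 0 for 73 stars and below 0 for 45, with a median of 0.11 beside 0.04 for all miRNAs. This split depended on the scaling, with 53 above and 65 below under median scaling and 39 above and 79 below under scaling to the 75th percentile, where the median of all miRNAs was -0.13 and -0.20. Without normalization, where it was 0.23, the split was 89 above and 29 below. Among the partners, 46 were above 0 and 60 below, with a median of -0.12, and 1 partner, miR-127, passed the test. That call was lost under 8 of 17 alternatives.

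The highest fold change was that of miR-199b*, from a hairpin typical of mesenchymal cells. It was at 8.23 and 8.58 in the Junb-/- clones and 6.97 and 7.53 in the wild type clones, without overlap. Its log2 fold change was 1.15 (SE, the standard error, 0.37, adjusted p = 0.184, limma), and 0.87 to 2.01 over the alternative settings. miR-214*, which shares the Dnm3os transcript with a miR-199a hairpin, was at 9.59 and 10.05 in the Junb-/- clones and 8.86 and 9.21 in the wild type clones. This was a log2 fold change of 0.79 (SE 0.36, adjusted p = 0.462, limma).

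miR-483*, from an intron of the imprinted growth factor gene Igf2, had 8.17 and 8.00 in the Junb-/- clones and 7.03 and 7.26 in the wild type clones, a log2 fold change of 0.94 (SE 0.35, adjusted p = 0.306, limma). For let-7b* the levels were 6.85 and 6.66 in the Junb-/- clones and 6.08 and 6.06 in the wild type clones, close to the floor. miR-877* stood at 8.57 and 8.32 in the Junb-/- clones and 7.32 and 7.99 in the wild type clones. The genotypes did not overlap for these stars either, but the differences did not pass the test. miR-92a*, miR-141* and miR-138* completed the 8 highest fold changes with 0.71, 0.68 and 0.60, and of these miR-141*, at 7.90 and 7.67 in the Junb-/- clones and 6.77 and 7.44 in the wild type clones, had genotypes that did not overlap.

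Among the stars with the lowest fold changes were 3 of the miR-17 family, whose main strands promote proliferation. miR-20b* was at 6.87 and 7.99 in the Junb-/- clones and 8.30 and 8.60 in the wild type clones, a log2 fold change of -1.02 (SE 0.41, adjusted p = 0.366, limma). miR-17* was at 7.60 and 8.94 in the Junb-/- clones and 9.05 and 9.47 in the wild type clones, and its log2 fold change was -0.99 (SE 0.44, adjusted p = 0.444, limma). miR-93* was at 6.81 and 8.16 in the Junb-/- clones and 8.21 and 8.41 in the wild type clones, a log2 fold change of -0.82 (SE 0.43, adjusted p = 0.548, limma). In all 3, Junb-/- clone 1 was the lowest array by a wide margin. Without that clone the log2 fold changes were -0.46, -0.33 and -0.14.

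let-7i* was at 7.81 and 8.14 in the Junb-/- clones and 8.40 and 9.55 in the wild type clones, a log2 fold change of -1.002 (SE 0.41, adjusted p = 0.383, limma), and -0.43 without wild type clone 2. miR-330* was at 8.68 and 8.89 in the Junb-/- clones and 9.45 and 9.78 in the wild type clones. Its log2 fold change was -0.83 (SE 0.35, adjusted p = 0.424, limma). miR-140* was at 9.99 and 9.78 in the Junb-/- clones and 10.77 and 10.51 in the wild type clones, a log2 fold change of -0.76 (SE 0.35, adjusted p = 0.462, limma). Genotypes were apart for each of these 3 stars.

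A pair of stars from the Dlk1-Dio3 region was also low. miR-382* was at 6.16 and 6.50 in the Junb-/- clones and 7.07 and 7.05 in the wild type clones. miR-299*, at 6.77 and 6.41 in the Junb-/- clones and 6.59 and 8.23 in the wild type clones, overlapped between genotypes, and its log2 fold change of -0.82 rested on wild type clone 2, as it was 0.00 without that clone.

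**Figure D2:**
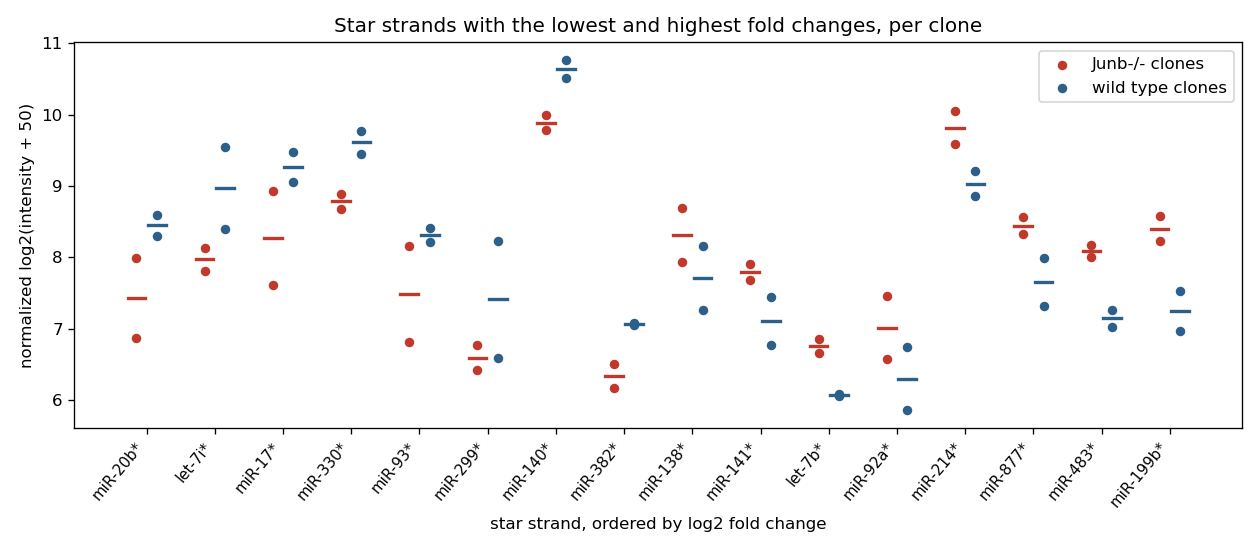
Normalized log2(intensity + 50) (y axis) of the 8 star strands with the lowest and the 8 with the highest fold changes (x axis), 1 point per clone, with bars at the mean of each genotype. The Junb-/- clones of miR-199b* sit at 8.23 and 8.58 above 6.97 and 7.53 in wild type, while for miR-17*, miR-20b* and miR-93* a single Junb-/- clone lies far below the others.

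Whether both strands of a hairpin shifted together was read from the fold changes of star and partner. They had the same sign in 55 pairs (51.9%), with 30 pairs above 0 and 25 below 0. With scaling to the 75th percentile, 74 pairs had the same sign, and with the median over spots 63. In 35 pairs the star was above 0 and the partner below, and in 16 the reverse. Across the pairs the Pearson correlation was 0.16 and the Spearman correlation 0.18, given as a description, as the pairs share arrays. Among the 29 pairs with both strands at or above the median, 16 had the same sign and the Pearson correlation was 0.22. For the 74 hairpins whose strands are named -5p and -3p, 42 (56.8%) had the same sign, with a Pearson correlation of 0.25. The median SD between clones over the stars was 0.24 for Junb-/- and 0.35 for wild type, beside a median size of 0.25 of their fold changes, so the sign of many stars is not resolved.

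**Figure D3:**
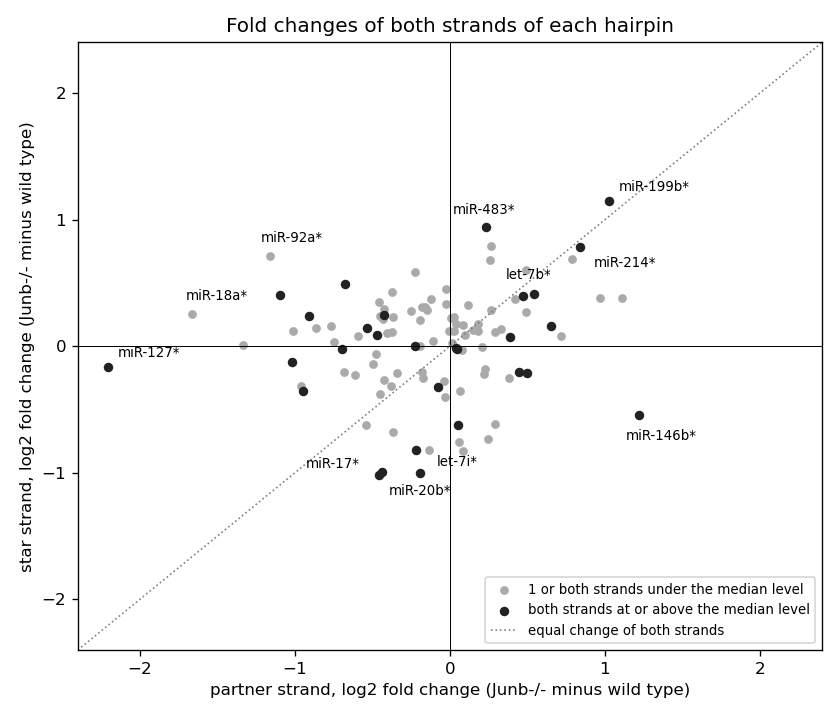
Log2 fold change (Junb-/- minus wild type) of the star (y axis) against that of its partner (x axis), 1 point per hairpin, dark where both strands were at or above the median level of the array. Points spread over all 4 quadrants, with miR-199b and miR-214 close to the line of equal change and miR-127, miR-18a and miR-146b far from it.

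Both strands had genotypes that did not overlap in the same direction in 8 pairs (7.55%), against 8.29% of all 181 hairpins, so the pairs were at the background. Higher in the Junb-/- clones were 6 of them, the hairpins of miR-199b, miR-214, let-7b, miR-425, miR-674 and miR-877. Lower were those of miR-17 and let-7i. The partner let-7i was barely apart, at 10.33 and 10.28 in the Junb-/- clones and 10.34 and 10.66 in the wild type clones. In 2 pairs, miR-467a and miR-10b, the strands were apart in opposite directions, with the star higher and the partner lower. This count was not compared with that over all hairpins. miR-10b was at 6.45 and 6.51 in the Junb-/- clones and 6.88 and 6.52 in the wild type clones, near the floor like its star.

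In the miR-199b hairpin the fold changes of both strands were close to each other. miR-199b was at 11.71 and 12.21 in the Junb-/- clones and 10.70 and 11.17 in the wild type clones, a log2 fold change of 1.03 (adjusted p = 0.296) beside 1.15 for the star. Its strand difference was -3.48 and -3.63 in the Junb-/- clones and -3.73 and -3.63 in the wild type clones. The genotypes thus differed in the strand difference by 0.12, with a 95% confidence interval of -1.001 to 1.25. miR-214 was at 11.95 and 11.38 in the Junb-/- clones and 10.54 and 11.12 in the wild type clones. The fold changes of its strands were 0.84 and, for the star, 0.79, and the strand difference differed between genotypes by -0.06 (95% confidence interval -1.24 to 1.12). Intervals of this width leave room for a change of 2-fold in either strand ratio.

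miR-17, miR-20b and miR-93 had log2 fold changes of -0.44, -0.46 and -0.22, beside -0.99, -1.02 and -0.82 for their stars. Without Junb-/- clone 1 this order was reversed, with -0.41, -0.57 and -0.26 for the partners and -0.33, -0.46 and -0.14 for the stars. In the miR-20a hairpin of the same family the partner was at -0.95 and the star at -0.35. miR-17 was at 10.12 and 10.17 in the Junb-/- clones and 10.87 and 10.30 in the wild type clones, and did not share the low value of its star in Junb-/- clone 1. The strand differences of the miR-17 hairpin were -2.52 and -1.23 in the Junb-/- clones and -1.81 and -0.83 in the wild type clones and overlapped. For let-7i the log2 fold change was -0.19, beside -1.002 for let-7i*.

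The strand difference itself was then compared between the genotypes over all 181 hairpins with both strands on the array, which also include the -5p and -3p names and miR-31. Of the pairs of star and partner, 0 passed at an adjusted p under 0.05 in limma, against 0.552% of all hairpins, and 0 with that t-test. The only hairpin to pass was that of miR-335, with -5p minus -3p higher by 3.02 on the log2 scale in Junb-/- clones (SE 0.64, adjusted p = 0.0239, limma). At an unadjusted p under 0.05 there were 7 star pairs (6.60%), 6 with a higher and 1 with a lower strand difference in Junb-/- clones, against 4.97% of all hairpins. The genotypes did not overlap in 36 pairs (34.0%), 25 higher and 11 lower, against 33.7% of all hairpins, so the pairs were at the background.

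The 4 hairpins with the largest positive differences, miR-127, miR-18a, miR-92a and miR-193, each had a partner that was lower in both Junb-/- clones than in both wild type clones, and a star whose genotypes overlapped. Of all miRNAs, 17.3% were lower without overlap. Picking hairpins by a large rise of star minus partner favours those with a lower partner, so this pattern is a description only. miR-127* was at 7.41 and 6.82 in the Junb-/- clones and 6.88 and 7.69 in the wild type clones, a log2 fold change of -0.17. miR-127, which silences the imprinted gene Rtl1, was at 6.33 and 6.26 in the Junb-/- clones and 7.54 and 9.45 in the wild type clones and fell by 2.20 on the log2 scale (adjusted p = 0.0460, limma). Without wild type clone 2 its log2 fold change was -1.25 (adjusted p = 0.327, limma), and without wild type clone 1 it was -3.16 (adjusted p = 0.0583, limma). The star was therefore the brighter strand in both Junb-/- clones, with strand differences of 1.08 and 0.57, and the dimmer in both wild type clones, with -0.66 and -1.77. This is a change of 2.04 (SE 0.57, 95% confidence interval 0.84 to 3.23, adjusted p = 0.116, limma), and of 1.48 without wild type clone 2. In the Junb-/- clones miR-127 was close to the floor.

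miR-18a and miR-92a, both encoded in the miR-17-92 transcript, also had a partner without overlap between genotypes. Neither partner passed in the main fit, though miR-18a passed under several other settings and miR-92a with cyclic loess. miR-18a was at 7.06 and 7.14 in the Junb-/- clones and 9.22 and 8.30 in the wild type clones (log2 fold change -1.66, adjusted p = 0.0512, limma), whereas miR-18a* was at 6.57 and 6.25 in the Junb-/- clones and 6.26 and 6.05 in the wild type clones. The strand difference was -0.49 and -0.89 in the Junb-/- clones and -2.97 and -2.25 in the wild type clones, a change of 1.92 (SE 0.55, adjusted p = 0.116, limma). miR-92a was at 8.13 and 8.14 in the Junb-/- clones and 9.61 and 8.97 in the wild type clones, and miR-92a* at 7.46 and 6.57 in the Junb-/- clones and 6.74 and 5.85 in the wild type clones. Its strand difference was -0.67 and -1.58 in the Junb-/- clones and -2.87 and -3.12 in the wild type clones, a change of 1.87 (SE 0.56, adjusted p = 0.119, limma). miR-18a* lay near the floor in every clone, which leaves little room for a lower level. miR-92a* was also near the floor in the wild type clones, at raw median intensities of 10.4 and 16.5.

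The miR-193 hairpin, with a change of 1.51 (adjusted p = 0.565, limma), rested on Junb-/- clone 1, in which the strand difference was 1.90 against 0.13 in Junb-/- clone 2 and -0.14 and -0.84 in the wild type clones. Without that clone the change was 0.62. The partner miR-193 was at 6.24 and 6.98 in the Junb-/- clones and 7.01 and 8.41 in the wild type clones. Only in wild type clone 2 was it well above the floor. miR-411, a Dlk1-Dio3 hairpin, had strand differences of 0.06 and 0.06 in the Junb-/- clones and -0.87 and -1.71 in the wild type clones, and miR-411* itself had a log2 fold change of 0.01.

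In the opposite direction was miR-146b, a miRNA induced by inflammatory signals that restrains NF-κB signalling. miR-146b was at 7.83 and 7.76 in the Junb-/- clones and 6.95 and 6.20 in the wild type clones, while miR-146b* was at 7.13 and 7.87 in the Junb-/- clones and 7.67 and 8.41 in the wild type clones. The strand difference was -0.70 and 0.11 in the Junb-/- clones and 0.72 and 2.21 in the wild type clones, a change of -1.76 (SE 0.60, 95% confidence interval -3.02 to -0.50, adjusted p = 0.260, limma). It was -1.02 without wild type clone 2. The star was thus the brighter strand in both wild type clones and in 1 of the Junb-/- clones. In the wild type clones miR-146b was near the floor, at raw median intensities of 35.5 and 10.94. The offset therefore limits the size of this change. The hairpins of miR-382, miR-330 and miR-196a followed with -0.98, -0.91 and -0.91, and only that of miR-330 had genotypes that did not overlap.

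**Figure D4:**
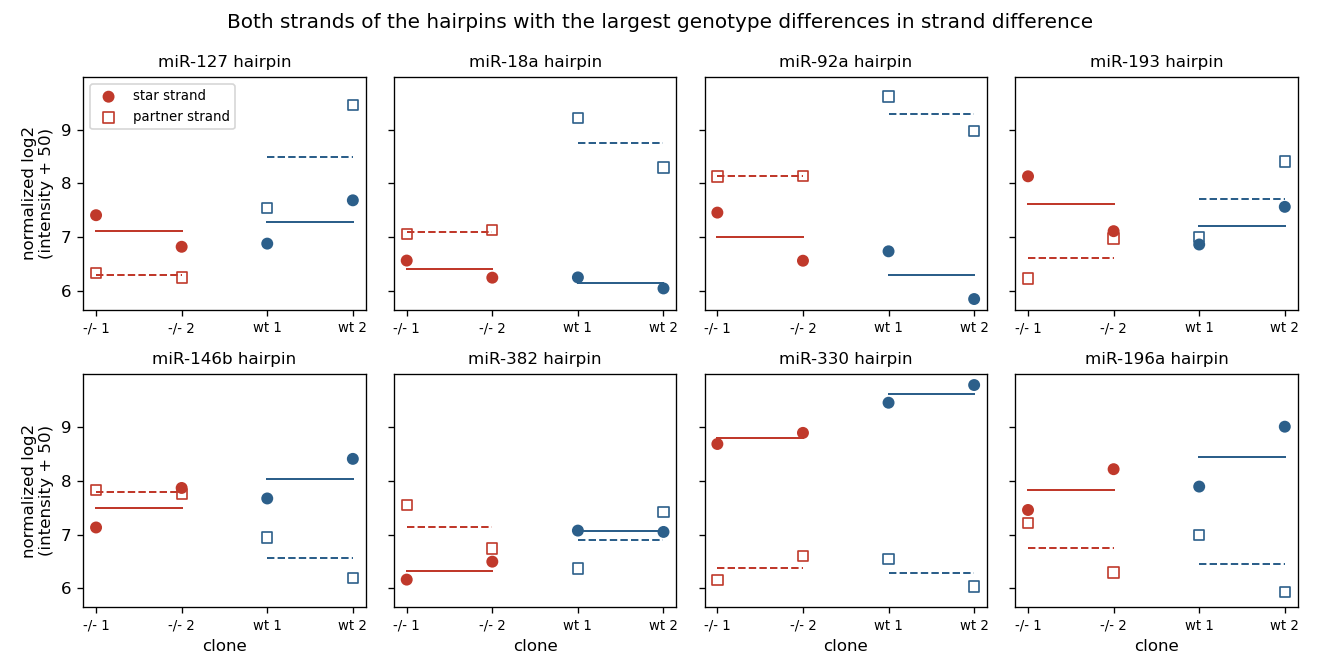
Normalized log2(intensity + 50) (y axis) of the star (filled circles) and the partner (open squares) of 8 hairpins in Junb-/- clones 1 and 2 (-/-) and wild type clones 1 and 2 (wt), with lines at the mean of each genotype. The partners of miR-127, miR-18a and miR-92a are lower in both Junb-/- clones while their stars overlap between genotypes, and in miR-146b the partner is higher and the star overlaps. The 8 hairpins were chosen by the size of their genotype difference in strand difference, which favours such patterns.

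Grouped by cluster or family, stars and partners gave different counts, and no star of any group passed the test. In the miR-17-92 group, 3 of 8 stars were above 0 and 5 below, with a median of -0.34. Genotypes did not overlap for 3 of the 8, against 38.6% of all miRNAs in either direction. All 3 were lower, against 17.3% of all miRNAs, but this direction was not set beforehand. These 3 were miR-17*, miR-20b* and miR-93*, and without Junb-/- clone 1 the median of the group was -0.024. All 8 partners of that group were below 0 (7 of 8 without normalization), with a median of -0.61, beside a median of 0.04 over all miRNAs. Leaving out each clone in turn gave medians of -0.34 to -0.89 with 6 to 8 of 8 below 0, the fewest without wild type clone 1. In the main fit 0 of the 8 passed. miR-18a passed with median scaling, cyclic loess, limma with trend and robust settings, the replicate block and only miRNAs at or above the median level. miR-92a passed with cyclic loess. In the Dlk1-Dio3 region, 6 of 13 stars were above 0 and 7 below, with a median of -0.17 that turned to 0.012 without normalization, whereas 12 of 13 partners were below 0 with a median of -0.54. Wild type clone 2 weighed on this, as the median of the partners was -0.22 without it, with 11 of 13 below 0, and -1.04 without wild type clone 1. The strand difference was higher in Junb-/- clones in 10 of the 13, and miR-127 was the 1 partner that passed. The median star of this region was at 6.59, so its stars were weak signals.

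For the let-7 family, whose main strands promote differentiation, 6 of 8 stars were above 0 with a median of 0.14, and 3 of 8 with -0.086 under 75th percentile scaling. Of 6 let-7 partners 5 were above 0, with a median of 0.34, and 3 under that scaling. In the Sfmbt2 group 5 of 6 stars were above 0 with a median of 0.20, and 3 of 6 with -0.011 under 75th percentile scaling. miR-467a* was at 10.53 and 10.69 in the Junb-/- clones and 10.22 and 10.52 in the wild type clones, and miR-467a at 7.65 and 7.73 in the Junb-/- clones and 8.68 and 8.51 in the wild type clones, a strand difference higher by 1.15 in Junb-/- clones (adjusted p = 0.884, limma). The mesenchymal group held miR-199b*, miR-214* and miR-145*, the last with a log2 fold change of -0.13. miR-145, the partner of miR-145*, was at 9.35 and 10.64 in the Junb-/- clones and 10.80 and 11.23 in the wild type clones. Its genotypes were apart and its fold change was -1.02 on the log2 scale, which did not pass the test. The partners of this group thus did not share a direction, as miR-199b and miR-214 were higher in the Junb-/- clones. In the miR-30 family 4 of 5 stars were above 0 with a median of 0.36, and 3 of 5 under 75th percentile scaling. The miR-15/16 family had 3 of 5 stars above 0 with a median of 0.22, and 2 of 5 with -0.013 under that scaling. The miR-29 family had 1 of 3 stars and 0 of 3 partners above 0, with medians of -0.14 and -0.45, and 2 of its 3 stars were above 0 without normalization.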

How the data were processed

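RNA of 2 Junb-/- and 2 wild type MEF clones was hybridized to 1 single-colour Febit array each. The deposited files hold 1 linear intensity per spot, 8 spots for each of 710 miRNAs, with 5313 and 5361 of the spots of the Junb-/- clones and 5167 and 5243 of those of the wild type clones having a value. A table of values that the authors normalized, on a log2 scale, served as an alternative. The scanner, the background step and the method of that normalization are not stated in the sources used here. No background or flag is given, so no detection call was made, normexp was not possible and the offset alone was used. Intensities held exact zeros and were taken as background-corrected.

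log2(intensity + 50) was brought to equal quantiles on the 4 arrays and then averaged over spots. limma 3.58.1 (R 4.3.3; lmFit and eBayes) was fitted to all 710 miRNAs, and to the strand differences of all 181 hairpins, contrasting Junb-/- with wild type (two-sided, Benjamini-Hochberg adjusted, threshold 0.05). Prior degrees of freedom were 11.8 and 17.3. The limma fit of the miRNA levels was tested on simulated levels with known differences, but normalization, spot averaging and the strand differences were not. The number of arrays limits the precision. A figure legend of the study speaks of clone pairs, but no label says that a number joins a Junb-/- and a wild type clone, so the fit was unpaired.

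Named stars were those past the threshold (there were 0), filled up to the 8 largest fold changes in each direction, the 8 brightest, the 8 pairs with the star furthest above and 6 furthest below its partner, and the 4 largest genotype differences in strand difference in each direction, with their partners. Other hairpins named, such as miR-411, were chosen after their values were seen. Members and lists were chosen with earlier results of these data known. The arm of each star was assigned by its current name. In all, 17 alternatives were tried, namely other offsets, scalings, spot summaries, filters and tests, the clone number as a block, each clone left out and, added after seeing the data, only spots measured on all 4 arrays. Slides could not enter as a block because they are not named. Python 3.11.15 with matplotlib 3.10.9 drew the plots.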

Additional observations from a re-analysis of the deposited data

How the results depend on the processing

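No star strand passed under any of the 17 alternatives, with the smallest adjusted p between 0.0559 (clone number as a replicate block) and 0.882 (no normalization), and 1 to 14 stars at an unadjusted p under 0.05. The hairpin called for its strand difference, that of miR-335, was lost, leaving 0 calls, without an offset, with an offset of 16, median or 75th percentile scaling, cyclic loess, no normalization, the authors' values, the median over spots, only miRNAs at or above the median level, the t-test given for qRT-PCR and the replicate block, and leaving out a clone gave 0 to 1. Stars brighter than their partner on all arrays numbered 6 of 29 pairs, and pairs with the same direction 16 of 29, when only miRNAs at or above the median level were kept, since fewer pairs remained. With 1 clone fewer these counts were 21 to 28 and 48 to 63. The count of brighter stars cannot fall below 21 there, because fewer arrays have to agree. Scaling to the 75th percentile gave 74 pairs with the same direction, against 55. The call of miR-127 was lost without an offset, without normalization, in the authors' values, with the median over spots, the t-test, only spots measured on all 4 arrays, and without wild type clone 1 or 2. The sign of some fold changes near 0 turned, and the cause was not tested: miR-467d* was -0.080 with median scaling, -0.15 with 75th percentile scaling and -0.18 in the authors' values, miR-467a* -0.023 with 75th percentile scaling, and miR-34c* 0.040 with cyclic loess and 0.28 without normalization. The genotype difference in the strand difference of miR-196a was 0.37 in the authors' values and 0.21 with the median over spots. When each clone was left out in turn, values ranged from -0.15 to 0.11 for miR-34c*, -0.19 to 0.51 for miR-467e*, -0.041 to 0.62 for miR-467b*, -0.087 to 0.38 for miR-467d*, -1.64 to 0.0025 for miR-299* and -1.99 to 0.18 for the strand difference of miR-196a. Deviations of same-numbered clones correlated at 0.31, with only 2 such pairs. A legend of the study speaks of clone pairs, but no label ties the clones of a number together, so the pairing is not established. With cyclic loess 66 stars were above and 52 below 0. Dim signals, with a floor of 5.64, limit what could be seen for most stars.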
